A study of Mus musculus with 12 samples.

Results

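The transcription factors that commit muscle stem cells (MuSCs) to myogenesis, and the membrane proteins with which their daughters fuse, were followed in 12 RNA-seq libraries. The 9 genes were those whose name in the count files is exactly Myod1, Myf5, Myf6, Myog, Mef2a, Mef2c, Mef2d, Mymk or Mymx, out of 55335 genes in all. Each of the 9 passed the filter on low counts, as did 22635 genes in total. MuSCs were sorted by their green fluorescence from hindlimbs of mice that carry a Pax7-ZsGreen transgene and were 3 to 6 months old. This reporter follows Pax7, so the sort relies on Pax7 and on none of the 9 genes. F cells were lysed as they left the sorter, 2d-U cells were grown for 2 and 5d-U cells for 5 days, uncompressed, on plastic coated with Matrigel and fibronectin in growth medium, and 2+3d-C cells spent days 2 to 5 of the same culture under a silicone (PDMS) sheet held about 4 μm above the dish by pillars. Each group had 3 libraries, called by the replicate numbers of their labels: 1, 4 and 5 for F, 1, 2 and 3 for 2d-U, 1, 2 and 6 for 5d-U, and 4, 5 and 10 for 2+3d-C. All cells carried the same reporter and no other allele or agent is named in the labels. Neither the labels nor the methods say how many mice stand behind a library or which libraries share a sort, so p-values measure only the spread between these libraries.

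MyoD (Myod1), Myf5, MRF4 (Myf6) and myogenin (Myog) are the myogenic regulatory factors (MRFs), basic helix-loop-helix proteins that pair with E proteins and bind the E-box of muscle genes. MyoD protein marks stem cells that have been activated and their dividing progeny, where Myf5 is made too. Myogenin drives cells out of division and into differentiation, and MRF4 acts mostly in differentiating and mature fibers. MEF2 proteins (Mef2a, Mef2c, Mef2d) bind beside MRFs at many muscle promoters and are held in check by class II histone deacetylases. Myomaker (Mymk) and myomixer (Mymx) are the muscle-specific membrane proteins that merge the membranes of myocytes into a multinucleated fiber.

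Promoter sequences (250 bases before to 50 bases after the start, RefSeq, build GRCm38.p6) were at hand for 5 of the 9 genes, Myf5, Myog, Mef2a, Mef2c and Mef2d. The letters CANNTG of the E-box, which reads the same on both strands, and the 10-letter consensus of the MEF2 site were searched on both strands, together with CTATATTTA, the letters of the MEF2 site long studied in the myogenin promoter. Those of Myog and Mef2a are shown because they hold a match to a MEF2 site, with matches in capitals. The Myog window (plus strand, chr1:134289754-134290053) and the Mef2a window (minus strand, chr7:67372809-67373108) read as follows.
Myog: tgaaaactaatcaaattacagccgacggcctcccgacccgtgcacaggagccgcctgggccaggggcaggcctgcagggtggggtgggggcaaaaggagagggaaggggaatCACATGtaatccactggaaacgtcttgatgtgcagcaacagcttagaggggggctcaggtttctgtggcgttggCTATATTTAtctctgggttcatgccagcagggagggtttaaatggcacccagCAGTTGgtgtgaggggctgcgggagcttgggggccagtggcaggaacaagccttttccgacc
Mef2a: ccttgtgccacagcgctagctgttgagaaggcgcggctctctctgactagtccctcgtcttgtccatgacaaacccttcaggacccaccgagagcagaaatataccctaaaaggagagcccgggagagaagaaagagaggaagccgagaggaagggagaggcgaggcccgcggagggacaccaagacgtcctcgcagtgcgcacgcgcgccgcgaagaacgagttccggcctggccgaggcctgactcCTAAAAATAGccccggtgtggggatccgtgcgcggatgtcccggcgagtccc
The Myog window held 2 E-boxes, CACATG at 138 and CAGTTG at 12 bases before the RefSeq start, and CTATATTTA at 64 bases before it, but no match to the 10-letter consensus. That RefSeq start lies 15 bases downstream of the start of the gene in the count files, so the nearer E-box falls within the transcript that was counted. The Mef2a window held no E-box and 1 MEF2 consensus, CTAAAAATAG, which begins 2 bases before the start. Of all 32851 promoter windows, 72.3% held at least 1 E-box, 39.6% at least 2, 1.86% the MEF2 consensus and 0.195% CTATATTTA. The windows of Myf5 and Mef2d held none of the 3 motifs, and that at the upstream start of Mef2c held 2 E-boxes. A match describes these letters and is no evidence of binding.

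Between 12540745 (2+3d-C replicate 5) and 62424851 (2+3d-C replicate 4) reads per library were counted on exons. Levels below are RPKM, reads scaled to exon length and to the TMM-scaled library size, and fold changes come from 1 edgeR quasi-likelihood fit to all 12 libraries with Benjamini-Hochberg adjustment over all tested genes, a gene being called at an adjusted p under 0.05. A few libraries stood apart. Reads were spread over gene families that are silent in muscle, mostly receptors of smell, pheromone and taste, at 5.03 and 7.13 reads per kilobase in F replicates 4 and 5, 3.81 in 5d-U replicate 1 and 0.634 in 5d-U replicate 6, against 0.00936 to 0.220 in the other 8. At that density 59.9 of the 93 Mef2c reads and 5.70 of the 13 Myog reads of 5d-U replicate 1 would be stray, but only 7.09 of its 25849 Myod1 reads. That library also held 5.85% of its reads on mitochondrial genes, against 0.0681% to 1.15% in the other 11. Where a call of the 9 genes changed without this library, the value without it is given. The 10 satellite cell markers summed to 9106 to 12150 CPM (reads scaled to library size, not to length) in 2+3d-C, 2661 to 6653 in F and 1141 to 1968 in the uncompressed cultures. Pax7 had 278 reads or more in every library, whereas Calcr, a marker of quiescent satellite cells, had 108 or more in each F and 2+3d-C library, 0 in 5d-U replicate 2 and 2d-U replicates 2 and 3, and at most 28 in the other uncompressed cultures. F libraries also held transcripts of other cell types, described at the end.

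**Figure D1:**
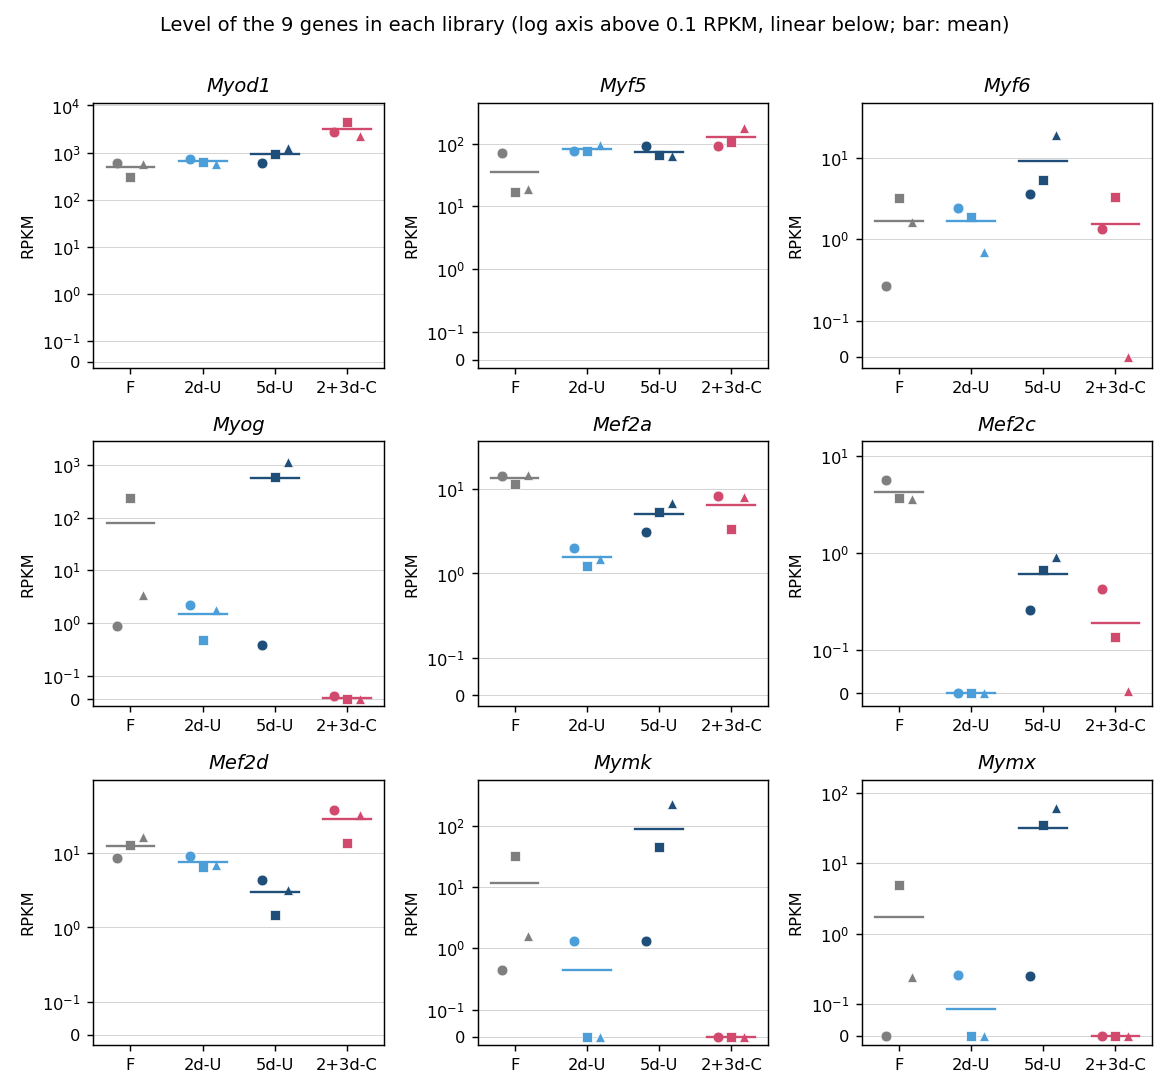
Level (RPKM) of each of the 9 genes in the 12 libraries, with 1 point per library, 1 symbol per library within a group in order of replicate number and a bar at the group mean; the axis is logarithmic above 0.1 RPKM and linear below. Myod1 and Mef2d were highest on average in 2+3d-C, while Myog, Mymk and Mymx lay at or near 0 in all 3 of its libraries and spread over orders of magnitude in 5d-U and F.

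Myod1 (ENSMUSG00000009471.4, mm10 chr7:46376474-46379099, plus strand, 1861 exonic bases) was the most abundant of the 9 transcripts per length in every group by mean, and higher in 2+3d-C than in any other group. It stood at 2774, 4548 and 2235 RPKM in 2+3d-C replicates 4, 5 and 10, at 604, 949 and 1278 in 5d-U replicates 1, 2 and 6, at 741, 644 and 580 in 2d-U replicates 1, 2 and 3, and at 597, 297 and 574 in F replicates 1, 4 and 5. The 3 compressed libraries lay above the other 9, which overlapped between groups except that 5d-U lay above F. In 2+3d-C Myod1 was 3.38-fold higher than in 5d-U (log2 1.76 ± 0.43 SE, adjusted p = 0.0101, edgeR), 4.87-fold higher than in 2d-U (log2 2.28 ± 0.44, adjusted p = 0.00206) and 6.51-fold higher than in F (log2 2.70 ± 0.45, adjusted p = 0.00559). Among the 3 uncompressed groups the order of means was 5d-U, 2d-U, F, and no neighbours in it passed the test (adjusted p = 0.410 for 5d-U against 2d-U and 0.429 for 2d-U against F). The call against 5d-U held with each library left out in turn, with adjusted p up to 0.0381. Without the 4 libraries rich in reads on silent families, which leaves 1 library in each of F and 5d-U, the differences stayed at log2 1.75 and 2.42 but the adjusted p rose to 0.0979 against 5d-U and 0.284 against F, while the call against 2d-U held (adjusted p = 0.00517). On library sizes without TMM the difference from 2d-U was smaller (log2 1.635) and still called. The replicate number was also used as a block, in a fit that links 2+3d-C to the other cultures only through F libraries. The differences in that fit were log2 2.86 from 5d-U and 2.99 from 2d-U. Neither was then called (adjusted p = 0.0694 and 0.0904).

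Myf5 (ENSMUSG00000000435.1, chr10:107482908-107486134, minus strand, 2083 exonic bases) had no call between any groups in the edgeR fit. It stood at 91.6, 107 and 178 RPKM for 2+3d-C, 91.2, 66.4 and 62.4 for 5d-U, 77.4, 76.0 and 96.1 for 2d-U, and 70.5, 16.8 and 18.6 for F. The lowest levels were those of F replicates 4 and 5. The 3 compressed libraries lay above the 3 of 5d-U, narrowly, and overlapped 2d-U. The comparisons nearest to a call were 2+3d-C against F (3.56-fold, adjusted p = 0.0519) and 2d-U against F (2.36-fold, adjusted p = 0.0612). Against 5d-U the log2 difference was 0.78, with a 95% interval of -0.23 to 1.78 and an adjusted p of 0.242. Leaving out F replicate 1 gave calls against F in 2+3d-C (log2 2.69, adjusted p = 0.00798), 2d-U (log2 2.14, adjusted p = 0.00505) and 5d-U (log2 1.66, adjusted p = 0.0223). 2+3d-C against F was also called without 5d-U replicate 1 (0.0434) or 2+3d-C replicate 4 (0.0457), by DESeq2 (log2 1.68, adjusted p = 0.0176) and with no filter on low counts (0.0124). 2d-U against F was called on library sizes without TMM (0.0425) and with no filter (0.0455).

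Myf6 (ENSMUSG00000035923.4, chr10:107492853-107494737, minus strand, 1263 exonic bases), which lies beside Myf5, was scarce throughout. It stood at 3.55, 5.25 and 18.7 RPKM for 5d-U, 2.38, 1.89 and 0.702 for 2d-U, 0.264, 3.18 and 1.603 for F, and 1.32, 3.25 and 0 for 2+3d-C, where replicate 10 had no read. 5d-U had the highest mean and its libraries did not overlap those of another group. No comparison was called in the edgeR fit (2+3d-C against 5d-U log2 -2.61 ± 1.38, adjusted p = 0.149) or by DESeq2.

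Myog (ENSMUSG00000026459.5, chr1:134289989-134292548, plus strand, 1495 exonic bases) was all but absent where Myod1 was highest. 2+3d-C replicates 4, 5 and 10 held 1, 0 and 0 Myog reads, although replicate 4 alone held 275321 Myod1 reads. 5d-U replicates 2 and 6 stood at 586 and 1108 RPKM, whereas 5d-U replicate 1 stood at 0.378 from 13 reads, below 2d-U, which stood at 2.18, 0.472 and 1.78. F cells were as uneven, with 0.890 and 3.35 RPKM in replicates 1 and 5 and 231 in replicate 4. With that single read pooled over the 3 libraries, the log2 ratio of Myog in 2+3d-C was -16.11 to 5d-U (95% Poisson interval -21.41 to -13.63, which covers counting error only; adjusted p = 0.00314) and -13.26 to F (-18.56 to -10.78, adjusted p = 0.0284). The ratio to 2d-U was -7.52 (-12.83 to -5.05). In the fit that difference was -7.165 and not called (adjusted p = 0.0869), although the libraries did not overlap. It was called without 5d-U replicate 1 (0.0117) or F replicate 4 (0.0337), by DESeq2 (0.00738), with only these 2 groups in the fit (0.00771) and with no filter on low counts (2.69e-15). The fit with no filter also held genes with hardly a read. Its very small p-values depend on that choice and overstate the evidence from 3 libraries a group. Without 2+3d-C replicate 4 no Myog read was left in the group. In these bulk libraries fewer cells of a type and less RNA per cell cannot be told apart.

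A few libraries decided the level of Myog elsewhere. 5d-U against 2d-U gave a log2 difference of 8.57 ± 2.27 that was not called (adjusted p = 0.0607) and was without 5d-U replicate 1 (log2 9.16, adjusted p = 0.00349). It was also called without 5d-U replicate 2 (0.0447), 2+3d-C replicate 10 (0.0279) or F replicate 4 (0.0338), by DESeq2 (0.00123) and with no filter (2.07e-30). The libraries of these groups overlapped, so the last p-value is not a measure of how far apart they lie. 2d-U against F was called lower (log2 -5.72 ± 2.01, adjusted p = 0.0362) though the libraries overlapped, and without F replicate 4 the log2 difference was -0.52 with an adjusted p of 0.796. The call was also lost without 2d-U replicate 1, 2 or 3 (adjusted p = 0.0620, 0.0758 and 0.0676). Without F replicate 4, the call of 2+3d-C against F was lost too (log2 -7.68, adjusted p = 0.108), as it was without 2+3d-C replicate 4, 5 or 10 (0.0540, 0.0680 and 0.05). With all libraries, 5d-U against F overlapped and was not called (log2 2.85, adjusted p = 0.313). It was called higher without F replicate 4 (log2 8.06, adjusted p = 0.0160) and with no filter (log2 2.72, adjusted p = 8.67e-06). Without the 4 libraries rich in reads on silent families the call of 2+3d-C against 5d-U held (adjusted p = 0.000812), that against F was lost (0.160), and 2+3d-C lay below 2d-U (0.00324).

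**Figure D2:**
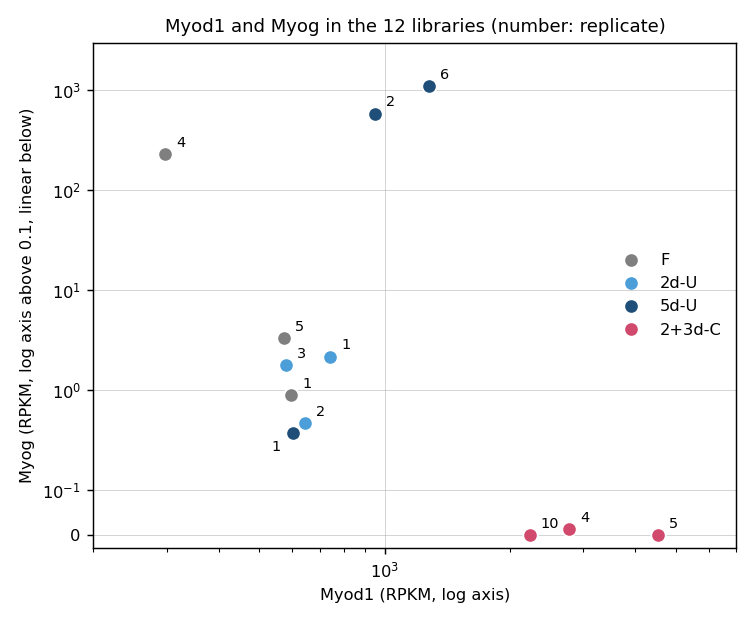
Myod1 (RPKM, logarithmic axis) against Myog (RPKM, logarithmic above 0.1 and linear below) in the 12 libraries, coloured by group and numbered by replicate. The 3 compressed libraries sit at the highest Myod1 with 0 or 1 Myog read, and F replicate 4 and 5d-U replicates 2 and 6 are the 3 libraries with Myog above 200 RPKM.

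Per length, Myod1 made up 95.7% ± 2.67 (SD, n = 3) of the summed RPKM of the 4 MRFs in 2+3d-C, 88.2% ± 2.43 for 2d-U, 79.9% ± 22.4 for F and 65.8% ± 18.2 for 5d-U. Myog took 0.000146% in 2+3d-C and 0.197% ± 0.114 in 2d-U, but between 0.0541% and 44.9% in 5d-U and between 0.133% and 42.1% in F. The summed level of the pool was 3313 ± 1187 RPKM in 2+3d-C, 1591 ± 884 in 5d-U, 741 ± 74.3 in 2d-U and 605 ± 60.6 in F. Myf5 supplied 11.4% ± 2.49 of the pool in 2d-U and 4.29% ± 2.71 in 2+3d-C. These shares were not tested.

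**Figure D3:**
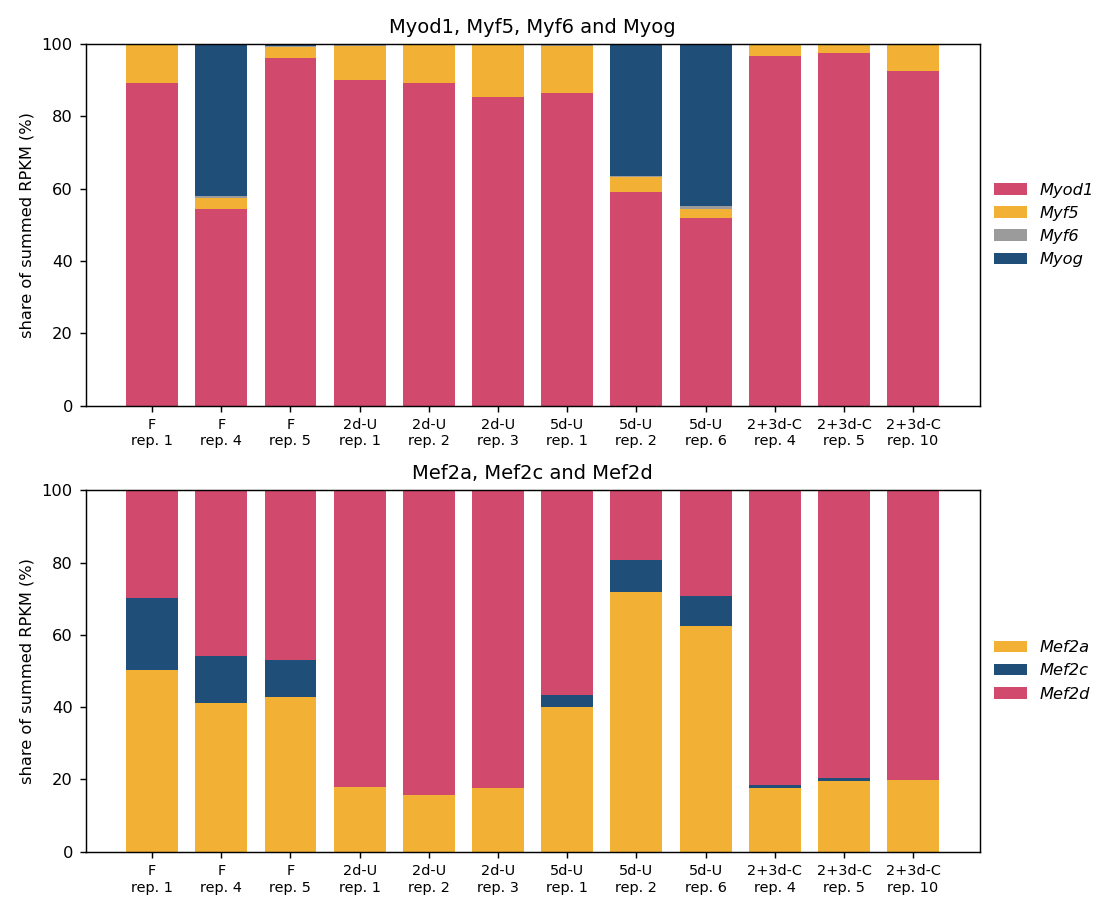
Share (%) of each paralogue in the summed RPKM of the 4 MRFs (upper panel) and of Mef2a, Mef2c and Mef2d (lower panel), with 1 bar per library. Myog takes between 36.5% and 44.9% of the MRF pool in F replicate 4 and 5d-U replicates 2 and 6 and hardly any elsewhere, and Mef2d takes at least 79.5% of the MEF2 pool in every 2d-U and 2+3d-C library.

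The fusion genes were abundant in the same 3 libraries as Myog. Mymk (ENSMUSG00000009214.9, chr2:27061636-27072179, minus strand, 1511 exonic bases) stood at 44.8 and 224 RPKM in 5d-U replicates 2 and 6 and 32.3 in F replicate 4. It stood at 1.32 in 5d-U replicate 1, 0.440 and 1.57 in F replicates 1 and 5, and 1.33 in 2d-U replicate 1, and had no read in 2d-U replicates 2 and 3 or in any 2+3d-C library. Mymx (ENSMUSG00000079471.4, chr17:45600971-45602102, minus strand, 1027 exonic bases), the smaller partner, stood at 34.7 and 61.3 RPKM in 5d-U replicates 2 and 6 and 4.91 in F replicate 4. Its other values were 0.254 in 5d-U replicate 1, 0.258 in 2d-U replicate 1, 0.246 in F replicate 5, and 0 in the remaining 6 libraries. At low levels the genes did not go together, as 2d-U replicate 3 held 120 Myog reads and none of Mymk, and 5d-U replicate 1 held 13 Myog and 46 Mymk reads. Of the 6 reads of Mymx in 5d-U replicate 1 3.91 would be stray.

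Against 3 reads in each compressed library, Mymk was at least 735-fold lower in 2+3d-C than 5d-U (adjusted p = 0.009995) and Mymx at least 178-fold lower (adjusted p = 0.0132). Without 5d-U replicate 6, the highest library, the limits fell to 188-fold for Mymk and 96.9-fold for Mymx, and without 2+3d-C replicate 5, the shallowest, they rose to 1408-fold and 341-fold. Both calls held with each library left out in turn, with adjusted p up to 0.0249 for Mymk and 0.0326 for Mymx, but not without the 4 libraries rich in reads on silent families (0.0968 and 0.0668), where 5d-U kept 1 library and the fitted log2 differences were -14.10 and -13.17, against -15.05 and -13.00 with all libraries. Against F, Mymk was at least 93.3-fold lower (adjusted p = 0.0569) and Mymx at least 9.53-fold lower (adjusted p = 0.0948), and neither was called in the edgeR fit, whereas DESeq2 called Mymk (adjusted p = 0.0025), as did the fit with only these 2 groups (0.0492). Without F replicate 4 the limit was 8.22-fold for Mymk and none could be set for Mymx. Against 2d-U, which held reads of either gene in replicate 1 alone, neither was called (adjusted p = 0.164 and 0.336). Against F, both were called with no filter on low counts, as they were against 2d-U, and without F replicate 1 (0.0408 each), and without 5d-U replicate 1 (0.0138 and 0.0392), and Mymk also without 5d-U replicate 2 (0.0462) or 6 (0.0435) or 2d-U replicate 1 (0.0206), 2 (0.0275) or 3 (0.0252). 5d-U against 2d-U was not called for Mymk (log2 7.61 ± 2.32, adjusted p = 0.0893) or Mymx (log2 8.37 ± 2.41, adjusted p = 0.0806) and was for both without 5d-U replicate 1 (adjusted p = 0.0264 and 0.0218), by DESeq2 (0.0456 and 0.0422) and with no filter. Mymk was also called there without 2d-U replicate 1 (0.0403) or 2+3d-C replicate 10 (0.0417), and Mymx without 2+3d-C replicate 10 (0.0310). 2d-U against F, not called for Mymk (log2 -4.64, adjusted p = 0.0736) or Mymx (log2 -4.15, adjusted p = 0.105), was called for both without 5d-U replicate 1 (0.0299 and 0.0467) or F replicate 1 (0.0372 and 0.0458), and for Mymk without 2d-U replicate 1 (0.0127) or 2+3d-C replicate 10 (0.0441). 5d-U against F overlapped and was not called for Mymk (log2 2.98, adjusted p = 0.330) or Mymx (log2 4.22, adjusted p = 0.168). It was called for both with no filter on low counts (0.000461 for Mymk and 0.00121 for Mymx), and for Mymx without 5d-U replicate 1 (0.0497).

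The MEF2 genes did not move as a family. Mef2d (ENSMUSG00000001419.17, chr3:88142372-88172086, plus strand, 5985 exonic bases, 8.87% of them shared with 1700113A16Rik) was highest by mean in 2+3d-C, at 38.4, 13.6 and 32.6 RPKM in replicates 4, 5 and 10. It stood at 8.47, 12.7 and 16.2 for F, 9.22, 6.59 and 6.95 for 2d-U, and 4.38, 1.46 and 3.22 for 5d-U. The compressed libraries overlapped F and lay above both uncompressed cultures, of which 5d-U was the lower. Mef2d was 9.36-fold higher in 2+3d-C than 5d-U (log2 3.23 ± 0.53, adjusted p = 0.000753) and 3.72-fold higher than in 2d-U (log2 1.90 ± 0.50, adjusted p = 0.0137). With the replicate number as a block in the fit, these differences shrank to log2 1.88 (adjusted p = 0.244) and 0.25, and neither was called. The block links 2+3d-C to the other cultures only through F libraries. In 2+3d-C Mef2d was 2.27-fold higher than in F without a call (adjusted p = 0.114). 5d-U was 4.13-fold lower than F (log2 -2.05 ± 0.50, adjusted p = 0.00933), and 2d-U, between them, passed the test against neither (adjusted p = 0.110 and 0.236), though DESeq2 called 5d-U below 2d-U (0.0464). Without F replicate 1 the log2 difference of 5d-U from F was -2.66, and with the block it was -1.20 and not called (adjusted p = 0.382). Without the 4 libraries rich in reads on silent families, the call of 2+3d-C against 5d-U held (adjusted p = 0.0260) and that of 5d-U against F did not (0.180). That of 2+3d-C against 2d-U was lost without 2d-U replicate 2 (0.0636), 2d-U replicate 3 (0.0584) or 2+3d-C replicate 4 (0.0527), and on library sizes without TMM (log2 1.38, adjusted p = 0.0839).

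Mef2a (ENSMUSG00000030557.17, chr7:67231163-67372858, minus strand, 14681 exonic bases, 2.06% shared with Lysmd4) was highest in F, at 14.2, 11.4 and 14.8 RPKM, and lowest in 2d-U, at 2.00, 1.22 and 1.48. Cells at day 5 lay between, at 3.11, 5.39 and 6.91 for 5d-U and 8.24, 3.37 and 8.12 for 2+3d-C. 2d-U was 8.58-fold lower than F (log2 -3.10 ± 0.47, adjusted p = 0.000399), a call that held under every alternative tried. 2+3d-C was 4.20-fold higher than 2d-U (log2 2.07 ± 0.45, adjusted p = 0.00449), and 5d-U 3.28-fold higher than 2d-U without a call (adjusted p = 0.0590). 2+3d-C and 5d-U, neighbours in the order, overlapped (log2 0.36, 95% interval -0.50 to 1.21, adjusted p = 0.533). 2+3d-C was 2.04-fold lower than F without a call (adjusted p = 0.118, 0.0318 by DESeq2) though the libraries did not overlap, and 5d-U 2.62-fold lower (adjusted p = 0.0375). The call of 5d-U was lost without 5d-U replicate 1 (0.178) or 2 (0.111), 2d-U replicate 1 (0.0651), 2 (0.0674) or 3 (0.0702), or F replicate 4 (0.0653) or 5 (0.110), and without the 4 libraries rich in reads on silent families (0.418). 5d-U against 2d-U was in turn called without 5d-U replicate 1 (0.0384) or 2+3d-C replicate 5 (0.0296) or 10 (0.0442), by DESeq2 (0.0114) and among genes of at least 5 CPM (0.0462).

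Mef2c (ENSMUSG00000005583.16, chr13:83504034-83667080, plus strand, 15715 exonic bases) had the widest range of the 3. It stood at 5.64, 3.65 and 3.56 RPKM for F, had no read at all in the 3 2d-U libraries, and stood at 0.257, 0.668 and 0.915 for 5d-U and 0.422, 0.138 and 0.00582 for 2+3d-C, where replicate 10 held 2 reads. 2d-U, with 0 reads in each library, was separated from every other group. Against 3 reads in each 2d-U library, Mef2c was at least 839-fold lower in 2d-U than in F (adjusted p = 0.000192), at least 120-fold higher in 5d-U than 2d-U (adjusted p = 0.0119) and at least 37.0-fold higher in 2+3d-C (adjusted p = 0.00140). These 3 calls held with each library left out in turn. Without 2+3d-C replicate 4 the limit for 2+3d-C against 2d-U fell to 14.1-fold, and 2+3d-C replicate 10, with 2 reads, lay under the 3 reads on which the limits rest. Without the 4 libraries rich in reads on silent families, the call of 5d-U against 2d-U was lost (log2 11.41, adjusted p = 0.448), as was that of 2+3d-C against F given next (0.463). Between the cultures at day 5 the libraries overlapped and the difference was not called (log2 -1.68 ± 0.96, adjusted p = 0.184). Both lay below F, by 22.3-fold in 2+3d-C (log2 -4.48 ± 1.08, adjusted p = 0.0330) and by 6.98-fold in 5d-U without a call (adjusted p = 0.0663). The log2 difference of 2+3d-C from F was -6.00 without 2+3d-C replicate 4 and -3.89 without 2+3d-C replicate 10. Its call was lost without 2+3d-C replicate 5 (0.0828), F replicate 4 (0.0826) or F replicate 5 (0.0781), and with reads on silent families subtracted (0.0538). That of 5d-U against F was gained without 2+3d-C replicate 4 (0.0297) or 10 (0.00523), by DESeq2 (log2 -3.21, adjusted p = 0.00439), without TMM (0.0427), with no filter on low counts (0.00134), among genes of at least 5 CPM (0.0297) and with only these 2 groups in the fit (0.00745). Mef2c is also known from endothelial cells. The summed level of 8 endothelial markers was 1093 to 1696 CPM in F, 268 to 286 in 2+3d-C, 7.82 to 38.7 in 5d-U and 12.5 to 13.9 in 2d-U, and the part of endothelial RNA in the Mef2c level was not tested.

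As a pool, the 3 MEF2 genes summed to 35.0 ± 15.8 RPKM in 2+3d-C and 30.2 ± 3.78 in F, against 9.15 ± 1.82 in 2d-U and 8.77 ± 1.98 in 5d-U. Mef2d made up 80.4% ± 1.07 (SD, n = 3) of it in 2+3d-C and 83.0% ± 1.23 in 2d-U. In 5d-U and F its share was 35.0% ± 19.3 and 40.9% ± 9.50, with Mef2a at 58.1% ± 16.2 and 44.6% ± 4.84 and Mef2c at 6.84% ± 3.06 and 14.5% ± 4.93. The 2d-U and 2+3d-C pools differed more in their level than in their shares.

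**Figure D4:**
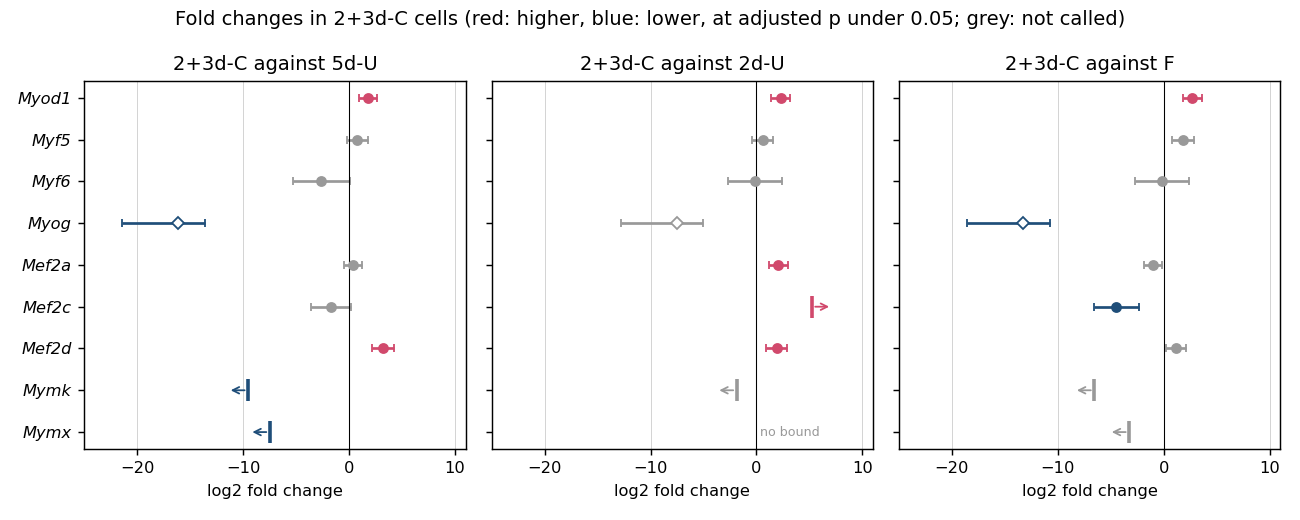
Log2 fold changes of the 9 genes in 2+3d-C against 5d-U, 2d-U and F. Points are fitted values with 95% intervals, open diamonds are Myog ratios from 1 read with Poisson intervals, ticks with arrows are limits computed against 3 reads per library where a group had no read, and red and blue mark genes called higher and lower; Myod1 is called higher in all 3 panels, and no limit could be given for Mymx against 2d-U.

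In all, 5 of the 9 genes were called in 2+3d-C against 5d-U, Myod1 and Mef2d higher and Myog, Mymk and Mymx lower, where 22.6% of all tested genes were called (9.14% higher, 13.4% lower). 4 were called against 2d-U, all higher (Myod1, Mef2a, Mef2c and Mef2d), where 24.6% of all genes were called (16.0% higher, 8.63% lower). 3 were called against F (Myod1 higher, Myog and Mef2c lower), where 6.40% of all genes were called (1.94% higher, 4.47% lower). Without compression, only Mef2c was called in 5d-U against 2d-U by edgeR (2.12% of all genes, 1.87% higher and 0.243% lower). DESeq2 called 6 of the 9 there, and 2889 of the 22635 genes entered, of which 3839 were given no adjusted p. Myog, Mef2a and Mef2c were called lower in 2d-U than in F (43.8% of all genes called, 10.6% higher and 33.3% lower), and Mef2a and Mef2d lower in 5d-U than in F (20.5% called, 11.6% higher and 8.90% lower). The comparisons share libraries, and the median log2 fold change over all tested genes was -1.05 for 2+3d-C against 5d-U, 0 against 2d-U and -0.762 against F. Among the 10766 genes that averaged 5 CPM or more it was -0.0616, 0.201 and 0.194. Myf5 and Myf6 were called in none of the 6 comparisons by edgeR. By the plainer measure of libraries that do not overlap, 3 of the 9 genes lay wholly higher and 4 wholly lower in 2+3d-C than 5d-U, against 12.6% and 29.7% of all genes. Against 2d-U it was 4 and 1 (18.1% and 17.4%), and against F 2 and 4 (8.79% and 18.3%). It was 3 higher and 1 lower in 5d-U than 2d-U (31.7% and 5.40%), 1 and 2 in 2d-U against F (20.4% and 32.1%) and 2 and 3 in 5d-U against F (21.4% and 22.8%).

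The genes whose centred log2 CPM over the 12 libraries lay closest to that of each member, by root mean square difference, were sought among named genes that averaged 10 CPM or more. Closest to Myog were Tnni1, the troponin I of slow fibers (1.47), Mymk (1.91) and Tmem119 (2.27), against a median of 5.01 over 8852 candidates. Closest to Mymk were Tnni1 (1.20), Myh3, the embryonic myosin heavy chain (1.79), and Myog (1.91), and closest to Mymx were Tnnc1, the troponin C of slow and cardiac muscle (1.39), Mymk (1.42) and Myh3 (1.51). Myod1 lay closest to Kti12 (0.359), Rrp9, a protein of ribosomal RNA processing (0.392), and Tnfrsf12a, the TWEAK receptor (0.392), against a median of 1.47. Mef2d lay closest to the splicing factor Sf1 (0.377), Atxn2l (0.431) and Fam222b (0.434), Mef2a to Ccser2 (0.428), Rb1cc1 (0.450) and Rell1 (0.474), and Mef2c to Gbp9 (1.49), Bace2 (1.53) and Cpe (1.63). Myf5 lay closest to Atxn7l3b (0.356), Sms (0.358) and Wdr77 (0.435), and Myf6 to Shisa4 (0.652), Wbp1 (0.728) and Amdhd2 (0.837).

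Most direct targets of these factors were lower in compressed than in uncompressed cells at day 5. Of 36 tested targets of MyoD, myogenin and MEF2, 21 were called lower in 2+3d-C than 5d-U, 4 higher and 11 neither, with a median log2 fold change of -3.82 against -1.05 over all genes and -0.0616 over those of at least 5 CPM. Of all tested genes 13.4% were lower and 9.14% higher. The 21 fell to 12 without 5d-U replicate 6 and the 4 to 1 without 5d-U replicate 1. Tnnt2, the cardiac troponin T of early muscle, stood at 17.7, 30.5 and 76.0 RPKM for 5d-U and 0.0847, 0 and 0 for 2+3d-C (log2 -10.06 ± 1.76, adjusted p = 0.00117). Chrna1, a subunit of the acetylcholine receptor, stood at 362, 630 and 746 for 5d-U and 15.4, 22.2 and 17.7 for 2+3d-C (log2 -4.97 ± 0.78, adjusted p = 0.000557). Acta1, skeletal actin, stood at 98.6, 685 and 947 for 5d-U and 24.3, 77.6 and 15.9 for 2+3d-C (log2 -3.88 ± 1.17, adjusted p = 0.0275). The 4 called higher were Des, the muscle intermediate filament (log2 1.32 ± 0.39, adjusted p = 0.0264), Fgfr4, a growth factor receptor of myoblasts (log2 3.68 ± 0.64, adjusted p = 0.00118), and, named after their values were seen, the cell cycle inhibitor Cdkn1c (log2 3.26) and the receptor subunit Chrnb1 (log2 1.33). Without the 4 libraries rich in reads on silent families, 13 targets were called lower and 0 higher.

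The same 36 targets looked different against the other groups. Against 2d-U, 10 were called higher and 5 lower (median log2 1.18, all genes 0), where 16.0% of all genes were higher and 8.63% lower, and Des was among the higher (log2 2.05) and Chrna1 (log2 -4.05) and Tnnt2 (log2 -8.02) among the lower. Against F, 3 were higher and 6 lower (median -2.75, all genes -0.762, those of at least 5 CPM 0.194), where 1.94% of all genes were higher and 4.47% lower. 12 of the 36 were called higher in 5d-U than 2d-U and none lower (median 4.78, all genes 1.13, those of at least 5 CPM 0.364), where 1.87% of all genes were higher and 0.243% lower. 5d-U replicate 1, nearly without Myog, had Actc1 at 0.161 RPKM, Tnni1 at 0.145 and Mylpf at 4.63. Replicates 2 and 6 had Actc1 at 277 and 254, Tnni1 at 77.6 and 247 and Mylpf at 443 and 1004. These 3 were named after their values were seen, and other targets did not follow them. Chrnb1 stood at 61.2, 63.8 and 67.5 RPKM in replicates 1, 2 and 6, Rapsn, which clusters acetylcholine receptors, at 105, 116 and 180, and Ttn, the giant protein titin, at 1.02, 0.507 and 0.611. The whole list summed to 4083 CPM in replicate 1 and to 10280 and 16280 in replicates 2 and 6.

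Of 15 E proteins and coactivators, which act with MRFs, 2 were higher and 2 lower in 2+3d-C than 5d-U (median log2 0.53), and of all tested genes 9.14% were higher and 13.4% lower. Tcf3, which encodes the E12 and E47 partners of MyoD, stood at 8.24, 7.03 and 5.96 RPKM for 2+3d-C against 21.1, 40.4 and 17.8 for 5d-U (log2 -1.90 ± 0.42, adjusted p = 0.00489). Tcf4, another E protein, stood at 9.002, 9.68 and 7.81 against 2.88, 2.52 and 3.23 (log2 1.62 ± 0.34, adjusted p = 0.00399). The arginine methyltransferase Prmt5 was lower (log2 -1.05 ± 0.34, adjusted p = 0.0363) and the acetyltransferase Crebbp higher (log2 2.17 ± 0.52, adjusted p = 0.00814), while the demethylase Kdm1a was not called (log2 0.91 ± 0.44, adjusted p = 0.121). Against 2d-U the same 4 genes were called in the same directions, together with Ep300 and Kat5, which were higher.

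Of 26 inhibitors of myogenic factors, 8 were higher and 4 lower in 2+3d-C than 5d-U (median log2 0.51), and 11 higher and 3 lower than in 2d-U (median 1.52). Of all tested genes 9.14% were higher and 13.4% lower than in 5d-U, and 16.0% higher and 8.63% lower than in 2d-U. Msc (musculin), a repressor that competes for E-boxes, stood at 282, 520 and 216 RPKM for 2+3d-C, 2.00, 0.0685 and 0.192 for 5d-U, and 46.2, 30.6 and 57.3 for F. Its log2 difference from 5d-U was 8.82 ± 1.10 (adjusted p = 0.000101), and that from F was 2.93 (adjusted p = 0.0515). The Notch target Heyl, which can restrain MyoD, stood at 76.9, 34.9 and 164 for 2+3d-C against 0.187, 0.102 and 0.507 for 5d-U (log2 8.45 ± 0.88, adjusted p = 2.55e-05). Hdac4, a class II deacetylase that represses MEF2, was also higher (log2 3.69 ± 0.49, adjusted p = 0.000161). Hdac7, another deacetylase of that class, named after its values were seen, was lower, at 0.0250, 0.0358 and 0.162 RPKM against 2.34, 1.21 and 0.753 for 5d-U (log2 -4.24 ± 0.89, adjusted p = 0.00365). The Id proteins, which bind E proteins in place of MRFs, had the 3 highest mean RPKM of the list. Id1 was called lower than in 5d-U (log2 -1.86 ± 0.63, adjusted p = 0.0453) though the libraries overlapped, and Id2 (log2 -1.002, adjusted p = 0.285) and Id3 (log2 0.40, adjusted p = 0.611) were not called. In 5d-U replicate 6 Id1 stood at 2070 RPKM and Id3 at 2827, against 361 and 486 in replicate 1. Against F, only Hdac7 of the 26 was called, and lower (log2 -5.57, adjusted p = 0.00604), where 1.94% of all genes were higher and 4.47% lower.

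Of 11 tested transcription factors and regulators of the stem cell state, 3 were higher and 3 lower in 2+3d-C than 5d-U (median log2 1.57), where 9.14% of all genes were higher and 13.4% lower. Pax7, which marks satellite cells, stood at 14.4, 15.1 and 10.4 RPKM for 2+3d-C, 5.75, 2.45 and 5.23 for 5d-U, 6.47, 5.11 and 5.69 for 2d-U, and 3.68, 1.52 and 2.33 for F (2+3d-C against 5d-U log2 1.57 ± 0.47, adjusted p = 0.0274, and against F log2 2.40 ± 0.48, adjusted p = 0.0151). Spry1, an inhibitor of growth factor signaling, was higher than in 5d-U (log2 5.54 ± 0.47, adjusted p = 6.40e-06). Pitx3, a homeobox factor of myogenic cells, was lower (log2 -5.04 ± 1.20, adjusted p = 0.00821). Of 10 satellite cell markers, 6 were higher than in 5d-U and none lower, with Sdc4 at 1984, 1247 and 2477 RPKM against 72.9, 51.2 and 53.1, Vcam1 higher by log2 4.53 ± 0.48 (adjusted p = 3.00e-05) and Chodl by log2 10.04 ± 1.25 (adjusted p = 9.40e-05).

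Of 36 other fusion genes tested, of the cell surface and the actin machinery, 8 were higher and 7 lower in 2+3d-C than 5d-U and 21 were not called (median log2 0.13, all genes -1.05, those of at least 5 CPM -0.0616), where 9.14% of all genes were higher and 13.4% lower. The tetraspanin Cd9 stood at 564, 1944 and 753 RPKM against 160, 137 and 465 (log2 2.10 ± 0.56, adjusted p = 0.0159), and Boc, a surface coreceptor of myoblast contact, was higher by log2 3.06 ± 0.59 (adjusted p = 0.00222). Tmem182, a membrane protein of muscle, had no read in 2+3d-C and stood at 1.26, 7.77 and 2.31 for 5d-U, at least 55.4-fold lower in 2+3d-C (adjusted p = 0.000633). That limit was 26.2-fold without 5d-U replicate 2 and 106.2-fold without 2+3d-C replicate 5. Tspan33 was lower (log2 -8.02 ± 1.605, adjusted p = 0.00277). The small GTPase Arf6 (log2 0.20, adjusted p = 0.734) and the tetraspanin Cd81 (log2 -0.06, adjusted p = 0.929) were not called.

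**Figure D5:**
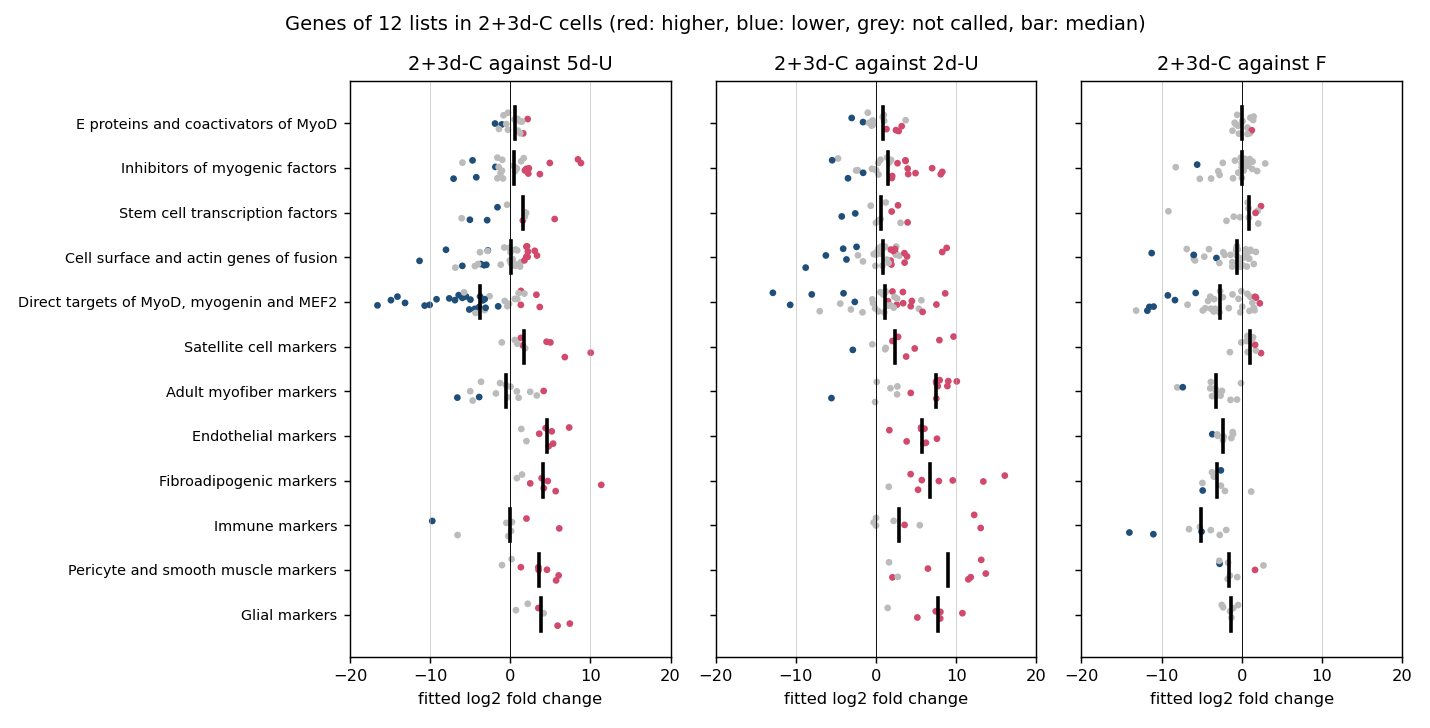
Fitted log2 fold changes of the tested genes of 12 lists in 2+3d-C against 5d-U, 2d-U and F, with 1 point per gene (red called higher, blue called lower, grey not called) and a bar at the list's median. Against 5d-U the direct targets lie mostly below 0 (21 lower, 4 higher) and the markers of endothelial, fibroadipogenic and pericyte cells above it (6 of 8 higher in each).

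Markers of other cells moved with the same comparisons. Of the 8 endothelial, 8 fibroadipogenic and 8 pericyte and smooth muscle markers 6 each were higher in 2+3d-C than 5d-U and none lower, of the 6 glial markers 3 were higher, and of the 8 immune markers 2 were higher and 1 lower, where 9.14% of all genes were higher and 13.4% lower. Cldn5, a claudin of endothelial junctions, stood at 48.1, 102.5 and 15.7 RPKM in 2+3d-C and at 0.952, 0 and 0.0691 in 5d-U (log2 7.35 ± 1.45, adjusted p = 0.00257). Fibroadipogenic markers summed to 4963, 31930 and 24980 CPM in F replicates 1, 4 and 5, led by Gsn, to 2735, 2502 and 4390 in 2+3d-C, and to 154 to 212 in 5d-U and 125 to 224 in 2d-U. Immune markers summed to 892 to 2174 CPM in F, led by Cd74, and to 49.9 to 190 in 2+3d-C, where the leukocyte gene Ptprc had no read in any library. 5d-U replicate 1 stood at 129 CPM, led by Lyz2, against 7.502 and 25.04 in the other 2 libraries of 5d-U. Glial markers, led by Mbp, summed to 440 to 762 CPM in F, 191 to 612 in 2+3d-C and at most 11.9 in the other cultures. Pericyte and smooth muscle markers, led by Des in 11 of the 12 libraries, summed to 2548 to 2771 CPM in 2+3d-C and 484 to 1821 in the other cultures. The list also holds a Notch receptor that the paper studied in MuSCs, so not all of its genes are particular to pericytes. Des is also a muscle gene and a member of the satellite cell and direct target lists. Without it the other 7 summed to 727, 436 and 797 CPM in 2+3d-C and 62.6, 641 and 741.5 in 5d-U, which overlap, and to 66.8 to 89.4 in 2d-U. Their part in the levels of the 9 genes was not tested.

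Adult myofiber markers separated the F libraries. The 15 markers summed to 3221 and 2151 CPM in F replicates 4 and 5, led by Acta1, and to 141 in F replicate 1. Myosin Myh4 of fast fibers held 1800 and 4369 reads in replicates 4 and 5 and 43 in replicate 1. F replicate 5 thus had myofiber transcripts with little Myog (3.35 RPKM), Mymk (1.57 RPKM) or Mymx (0.246 RPKM), whereas F replicate 4 had both. The list summed to 1568, 3934 and 6345 CPM in 5d-U, led by Eno3, an enolase of muscle, and to 240, 295 and 315 in 2+3d-C, where 1 marker was higher than in 5d-U (Pvalb) and 2 were lower (Eno3 and Acta1). The part of fiber fragments in the F levels was not tested.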

How the data were processed

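RNA of sorted MuSCs was made into cDNA with SMART-seq v4, a kit that does not mark strand, and sequenced as single-end 75-base reads. The authors aligned reads to mm10 with the nf-core RNA-seq pipeline and deposited raw read counts per GENCODE vM23 gene (featureCounts 1.6.4, exons, strand ignored), so reads of a gene and of an overlapping or antisense gene cannot be told apart. The counts were used as deposited, with totals of 12540745 to 62424851 per library, and 55335 genes in the files.

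Libraries were grouped by their labels. edgeR 4.0.16 (R 4.3.3) was used for a quasi-likelihood fit over all 12 libraries with filterByExpr (22635 genes kept), TMM library sizes and Benjamini-Hochberg adjustment over all genes tested. Standard errors were the log2 fold change over the square root of F, and intervals are 95%. The study used DESeq2, which was run here as an alternative (1.42.0). RPKM used TMM-scaled library sizes and the exon lengths in the files, and log2 CPM a prior count of 2. Where a group had no read, a fold was set against 3 reads per library and written as a limit, and the 1 Myog read of 2+3d-C was given an exact Poisson interval. Both cover counting error only. Reads of PCR copies are not independent molecules. Stray reads were estimated from the read density on 2106 autosomal genes of silent families.

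The 9 genes and all gene lists were chosen with earlier results of these data known. Genes named from a list were taken from the 3 with its highest mean RPKM and the 3 with its smallest p in 2+3d-C against 5d-U, not all of which are described, and for each of the 9 genes the 3 closest genes of at least 10 CPM. 1 gene that this rule selects is not reported here. Genes named otherwise were chosen after their values were seen. 2 list entries matched no gene name in the files. Promoters came from RefSeq (GRCm38.p6) and matched 5 of the 9 symbols. On simulated data of 2+3d-C against 5d-U with 19821 genes, 37 of 102 genes changed by a log2 of 3 and 1 of 98 changed by 1.5 were recovered, with 2 false calls. Alternatives were DESeq2, library sizes without TMM, no mitochondrial genes, no filter, a mean of at least 5 CPM, only the 2 groups compared, subtraction of stray reads, a replicate block and each library left out.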

Additional observations from a re-analysis of the deposited data

How the results depend on the processing

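Of 1121 fold changes of the 9 genes under alternatives, 979 kept their call and direction, 81 gained a call, 41 lost it and 20 reversed, none of the last past the threshold. The 9 genes' calls in 2+3d-C against 5d-U numbered 5 with each library left out. Over the same 12 fits the number was 3 to 5 against 2d-U, 1 to 6 against F, 1 to 5 in 5d-U against 2d-U, 2 to 6 in 2d-U against F and 1 to 3 in 5d-U against F. All genes called, in the same order of comparisons, numbered 3065 to 5267, 3761 to 5651, 248 (without F replicate 4) to 10063 (without F replicate 1), 153 to 1334, 5060 to 16533 and 3028 to 5287. Direct targets called in 2+3d-C against 5d-U numbered 1 to 5 higher and 12 to 24 lower.

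With DESeq2, 6 of the 9 genes were called in 2+3d-C against F and 6 in 5d-U against 2d-U (4153 and 2889 genes in all). Without the filter, 7 were called in 2+3d-C against 2d-U, 6 against F (2794 genes), 4 in 5d-U against 2d-U (2066 genes), 6 in 2d-U against F and 6 in 5d-U against F. That fit tested 49901 genes, so the shares of all genes given for the main fit do not apply to these counts. Where no number of all genes stands beside a count from that fit, the count has no background here. Such a count does not show that the 9 genes stand out from other genes. Among genes of at least 5 CPM, 788 genes were called in 2+3d-C against F, 311 in 5d-U against 2d-U (2 of the 9) and 4941 in 2d-U against F. 5d-U against 2d-U gave 171 called genes without TMM, 768 with only these 2 groups and 132 with stray reads subtracted. With only the 2 groups compared, Myog in 2d-U against F (adjusted p = 0.0564) and Mef2a in 5d-U against F (0.0913) were not called.

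Leaving out the 4 libraries with over 0.5 reads per kb on silent families, an alternative chosen after seeing the data, left 1 library in F and in 5d-U, each assumed to vary like the other groups. 2 of the 9 genes were then called in 2+3d-C against 5d-U (1138 genes in all), with 0 direct targets higher and 13 lower, 0 against F (19 genes) and 1 in 5d-U against F (173 genes). 3325 genes were called in 2+3d-C against 2d-U, 11 in 5d-U against 2d-U and 1695 in 2d-U against F.

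Reversed differences, none past the threshold once reversed, were as follows. Myf6 ranged from -1.29 to 0.44 in 2+3d-C against 2d-U, from -1.30 to 0.68 against F and from -0.63 to 0.82 in 2d-U against F on the log2 scale with each library left out, was 0.11 in 2d-U against F without the filter, and was 2.51 and 2.66 in 2+3d-C and 2d-U against F without the 4 libraries. Without these 4, 2d-U against F was 0.76 for Myog, whose call was thereby lost, 0.040 for Mymk and 4.66 for Mymx, and 5d-U against F was -0.080 for Myf5.

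The replicate numbers were not taken to pair the libraries, although, by the study's account, sorted batches were spread over conditions. 2+3d-C and 5d-U share no number, the labels do not say what a number marks, and the correlation of deviations between same-numbered libraries was -0.424 to 0.0322. With the replicate block, 3 of the 9 genes were called in 2+3d-C against 5d-U (3826 genes in all), 6 against F (1960) and 1 in 5d-U against F (1261), and 1926 and 2739 genes in all in 2+3d-C against 2d-U and 2d-U against F. The block ended the calls of Myod1 (log2 2.86, adjusted p = 0.0694) and Mef2d (1.88, 0.244) against 5d-U, of Myod1 (2.99, 0.0904), Mef2a (1.86, 0.388) and Mef2d (0.25, 1) against 2d-U, and of Mef2a (-1.76, 0.295) and Mef2d (-1.20, 0.382) in 5d-U against F. 2d-U replicate 3, 5d-U replicate 6 and 2+3d-C replicate 10 have numbers of their own, so under the block they add nothing to group differences. 2+3d-C is linked to 5d-U and 2d-U only through F replicates 1, 4 and 5. Calls lost or gained under the block therefore say little about how firm the main calls are. The Myod1 differences were larger under the block than without it. It added calls of Myog, Mymk and Mymx lower in 2+3d-C than 2d-U, of Myf5, Mymk and Mymx against F, and of Mef2c in 5d-U against F. Under the block Mef2c in 2+3d-C against 5d-U was 0.55, Myf5 in 5d-U against 2d-U 0.021, and 2d-U against F 2.95 for Myf6, 0.27 for Myog, its call lost, 0.42 for Mef2d, 0.60 for Mymk and 4.91 for Mymx.

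Scaling moved the balance of calls. Of genes called in 2+3d-C against 2d-U 64.9% were higher with TMM and 44.7% without it, against F 30.2%, 10.4% without TMM and 20.1% with DESeq2, in 5d-U against 2d-U 88.5% and 73.7% without TMM, and in 5d-U against F 56.6% and 42.2% with DESeq2. The median log2 change of all genes in 2+3d-C was -1.21, 0 and -1.24 against 5d-U, 2d-U and F without TMM. Mean CPM in 2d-U without TMM was 1489 for Myod1 (1219 with it), 212.4 for Myf5 (173.2) and 55.4 for Mef2d (45.4). With 3 libraries a group and the spread seen here, a missing call does not show that a gene is unchanged. On simulated data most changes of a log2 of 1.5 went unrecovered. Only 98 and 102 of 19821 genes were changed there, whereas 22.6% of tested genes were called in 2+3d-C against 5d-U. Fewer changed genes make the adjusted threshold stricter, so the simulated recovery does not carry over to the data.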
